A study of Mus musculus with 19 samples.

Results

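The 34 genes described here encode proteins of mitosis and of the mitotic spindle, and they were chosen by name. They were followed in ovaries of wild-type CD-1 mice, an outbred strain, at gestation days (gd) 11, 12, 14, 16 and 18 and at postnatal day (pnd) 2. Each of the 6 stages had 3 arrays. A probe set, the group of probes that reports one transcript on an Affymetrix array, was assigned to a gene when the platform annotation gave it that single gene. For a gene with several, the one with the highest mean over the 18 ovary arrays represented it. By this rule 33 of the 34 genes had a probe set, of 18193 genes with one in the whole array, and Ccnb1 (cyclin B1) had none. All 33 had a stage mean above the filter on low signal (115.78) at every stage, the lowest being 295, and so all were among the 12574 genes tested.

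The ovaries were excised whole, so each array mixes germ cells with the somatic cells of the gonad. The sample labels give pools of 3 at gd11, gd12 and gd14 and no pooling at the later stages, whereas the text of the series speaks of single animals, each from its own dam. The exception is a pair of gd11 samples, 18 and 19, which shared a dam. Gd11 samples 16 and 18 are labelled as gonad with mesonephros, the embryonic kidney beside the gonad, and gd11 sample 19 as gonad. One further array held RNA of whole newborn animals of both sexes at pnd 0.5 and had no replicate. No genotype, transgene or treatment differed between the stages.

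Mitosis begins when cyclins bound to their kinase drive condensation of the chromosomes and assembly of a bipolar spindle. Kinetochores, protein assemblies on each centromere, attach the chromosomes to spindle microtubules while the spindle checkpoint holds back the ubiquitin ligase that starts anaphase. The chromosomal passenger complex corrects faulty attachments, and motors of the central spindle then guide cytokinesis. In the fetal ovary, primordial germ cells divide by mitosis, then enter meiotic prophase and arrest as oocytes, and the somatic cells that surround them become granulosa cells. Several of these proteins also serve the meiotic divisions, and oocytes store their transcripts.

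Transcription of many mitotic genes is tied to the cell cycle through elements close to the start site. One is the CCAAT box, bound by the factor NF-Y, and another is the cell cycle genes homology region (CHR), bound by the complexes that repress these genes in resting cells and activate them in dividing cells. The RefSeq promoters of build GRCm38.p6, 250 bases before to 50 bases after each annotated start, were matched by symbol and searched on either strand. The letters were CCAAT, which reads as ATTGG on the other strand, for the first element. For the second they were TTTGAA, which reads as TTCAAA on the other strand. There were 31 promoters for 30 of the 34 genes, 2 of them for Prc1. Aurkb, Ccna2, Kif20a and Tpx2 were not matched. The windows below hold the 100 bases before the start of 7 members, in 5′ to 3′ direction of the gene, and lie upstream of its transcript. They are shown because the results turn on these genes: Cdc20, Top2a and Kif11 were highest at gd11, Bub1 at gd14, and Ube2c, Prc1 and Ncapg at pnd2. Capitals mark the CCAAT and TTTGAA letters on either strand.
Cdc20: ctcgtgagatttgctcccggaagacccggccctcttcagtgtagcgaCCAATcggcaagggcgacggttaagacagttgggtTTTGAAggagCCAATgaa
Top2a: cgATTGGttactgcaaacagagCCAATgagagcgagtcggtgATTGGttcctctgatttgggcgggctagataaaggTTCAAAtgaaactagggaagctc
Kif11: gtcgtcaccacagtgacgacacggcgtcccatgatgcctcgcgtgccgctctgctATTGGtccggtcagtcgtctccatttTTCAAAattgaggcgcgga
Prc1: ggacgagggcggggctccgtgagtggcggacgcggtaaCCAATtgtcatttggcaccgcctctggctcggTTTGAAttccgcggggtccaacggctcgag
Ube2c: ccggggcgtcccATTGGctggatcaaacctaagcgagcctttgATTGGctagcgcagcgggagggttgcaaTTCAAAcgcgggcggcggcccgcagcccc
Ncapg: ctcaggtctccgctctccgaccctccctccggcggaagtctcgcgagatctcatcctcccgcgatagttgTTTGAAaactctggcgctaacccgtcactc
Bub1: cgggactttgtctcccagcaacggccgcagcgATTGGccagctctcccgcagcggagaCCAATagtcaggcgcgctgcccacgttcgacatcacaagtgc

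In GRCm38.p6 the windows were chr4:118437344-118437443 (minus strand) for Cdc20, chr11:99024190-99024289 (minus strand) for Top2a, chr19:37376282-37376381 (plus strand) for Kif11, chr7:80294376-80294475 (plus strand) for Prc1, chr2:164769829-164769928 (plus strand) for Ube2c, chr5:45669825-45669924 (plus strand) for Ncapg, and chr2:127831860-127831959 (minus strand) for Bub1. Cdc20, Top2a, Kif11, Prc1 and Ube2c share an arrangement in which a CCAAT match precedes a TTTGAA match close to the start. Their TTTGAA match began between 18 and 30 bases before the start, at position -18 in Cdc20, -19 in Kif11, -23 in Top2a, -29 in Ube2c and -30 in Prc1. The nearest CCAAT match upstream of it began at -53, -45, -58, -57 and -62, in the same order of genes. In the other Prc1 promoter, which is not printed, CCAAT began at -37 and TTTGAA at -5. Many other members held TTTGAA after the start instead, among them Bub1b (41), Aurka (33), Plk1 (31) and Cdca3 (31). In Kif2c it lay further upstream (-103). Ncapg held TTTGAA at -30 with no CCAAT in the printed window, its CCAAT match lying at -176. Bub1 held CCAAT at -68 and -42 and no TTTGAA in the 300 bases. It did hold TTCGAA, a related form of the CHR, at 15.

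Of the 31 member promoters, 24 (77.4%) held CCAAT, against 37.4% of all 32851 promoters of the table, and 22 (71.0%) held TTTGAA, against 17.9%. Both were present in 20 (64.5%), against 6.95%. Related forms of the CHR were rarer: TTCGAA in 3 member promoters (9.68%, against 1.56%) and TTTAAA in 9 (29.0%, against 13.2%). Neither CCAAT nor TTTGAA was found for Birc5, Mad2l1, Ncaph, Nuf2 and Nusap1. Of these, only Birc5 held a related form, TTTAAA at -220. By the stage of highest signal, TTTGAA was present for 13 of 16 genes highest at gd11 or gd12, 2 of 3 highest at gd14 and 6 of 10 highest at pnd2. CCAAT was present for 13, 3 and 6 of these genes. These matches describe letters in a window and were not tested as binding sites.

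**Figure D1:**
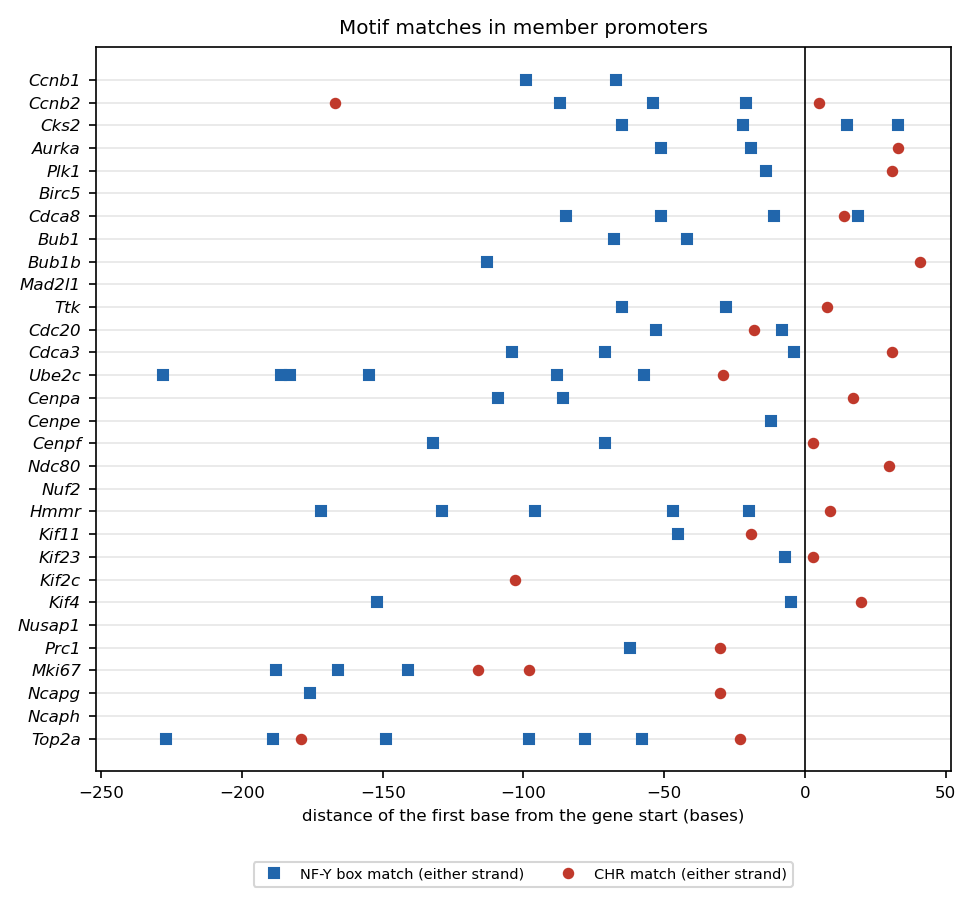
Positions of CCAAT matches (NF-Y box, blue squares) and TTTGAA matches (CHR, red circles) on either strand in the RefSeq promoters of 30 members, with genes in rows grouped by role and the distance of the first base of the match from the annotated start on the x axis, in bases. For Prc1 1 of its 2 promoters is drawn; CCAAT matches lie mostly before the start, and TTTGAA matches lie from -179 to 41.

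Facts of the whole series that touch these genes are as follows. The deposited signals were scaled to the same trimmed mean (500.003) on every ovary array, and 47.8% to 54.2% of probe sets per array exceeded the filter. For Gapdh the 3′ probe set, divided by the 5′ one, gave 2.99 to 3.28 at gd11 and 5.07 to 5.41 at pnd2, a measure that reflects RNA integrity and amplification. Its part in the changes below was not tested. Gd16 sample 7 had a signal of 44.8 for Xist, the RNA of the inactive X chromosome, where the other 17 ovary arrays ranged from 11306 to 18576. Eif2s3y, Kdm5d and Uty on the Y chromosome were at 84.4 or below on every ovary array. The oocyte factor Nobox was at 17.8 in that sample and at 366 and 246 in the other gd16 samples. Gd11 sample 16 had a signal of 7965 for the neuronal gene Stmn2, against 227 and 291 in the other gd11 samples. Counts of members in the comparisons that use either array are given with and without it.

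The defining markers of the labelled tissue were present. Stra8, which starts meiosis in germ cells, measured 2189 to 3583 at gd14 and 135 or less at every other stage. The 14 markers of meiotic prophase summed to 1561 to 1602 per array at gd11, 44361 to 59034 at gd14, 18517 to 24494 at gd16 and 17716 to 27268 at pnd2. Sycp3 (mean 12431) and Syce2 (mean 5055) made up most of the pnd2 sum. From gd18 to pnd2, 8 of the 14 fell and 0 rose (6.89% and 8.47% of all tested genes). Stra8, Meioc and Dmc1 had pnd2 means of 52.5, 48.8 and 99.8. The 8 germ cell markers with a probe set, of 9 listed, summed to 1449 to 2133 at gd11, 29698 to 32700 at gd14, 11461 to 17094 at gd16 and 16978 to 21814 at pnd2, with Tdrd1 at 78.9 or below on every array. The 9 oocyte markers summed to 203 to 282 at gd11, 6733 to 13178 at gd18 and then 35679 to 52049 at pnd2. The 8 granulosa lineage markers summed to 5314 to 5758 at gd11, 33068 to 37506 at gd16 and 20639 to 27933 at pnd2. Amhr2 was the largest part of the gd16 sum (mean 14872). Single markers differed: Foxl2 was highest at pnd2 (mean 3300, against 2565 at gd16), and Wnt4 was lowest there (1226, against 1301 at gd11). Primitive blood cells are also part of the early samples: 7 of 8 erythroid markers with a probe set summed to 49518 to 57507 at gd11, 33559 to 36512 at gd14 and 294 to 436 at pnd2. Hbb-y alone (mean 32748) made up most of the gd14 sum. Hbb-bh1 had by then gone from a mean of 15653 at gd11 to 245, and Hba-x from 5867 to 423. Alas2, Klf1 and Ermap were instead highest at gd16, with means of 2313, 512 and 1330. The 8 of 10 markers of mesonephros and nephric duct with a probe set summed to 5919 to 7393 at gd11, 2977 to 3829 at gd14 and 1587 to 2706 at pnd2. Emx2 alone, with means of 2832 at gd14 and 1840 at pnd2, made up most of these later sums. Foxd1 went from a mean of 1955 at gd11 to 65.3 at gd14 and 1.97 at pnd2. At pnd2, 6 of the 8 were lower than at gd11 and 0 higher (20.6% and 26.3% of all tested genes). No marker was listed at 0 on any array. How far these changes in cell makeup move with the mitotic genes was not tested.

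Most of the mitotic genes had their highest signal early, lower signals up to gd18 and higher signals again after birth. The F test of limma over the 6 stages called 32 of the 33 members changed, where 68.1% of all tested genes were called. Ttk, a kinase of the spindle checkpoint, was the member not called (adjusted p = 0.697). The lowest adjusted p values were those of Top2a (5.16e-09), Ube2c (1.03e-08) and Cdc20 (1.18e-08). With any 1 array left out, the F test called 30 to 32 members. As these are whole ovaries, fewer dividing cells and less mitotic RNA per cell cannot be told apart.

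The median deviation of the 33 genes from their own mean over the 18 arrays shows the course on the log2 scale. It lay between 0.44 and 0.56 on the gd11 arrays and between 0.16 and 0.38 at gd12. It lay between -0.13 and -0.04 at gd14, between -0.45 and -0.25 at gd16 and between -0.58 and -0.38 at gd18. At pnd2 it returned to between -0.08 and 0.20. No gd11 or gd12 array fell below any array of gd14, gd16 or gd18 in this summary.

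**Figure D2:**
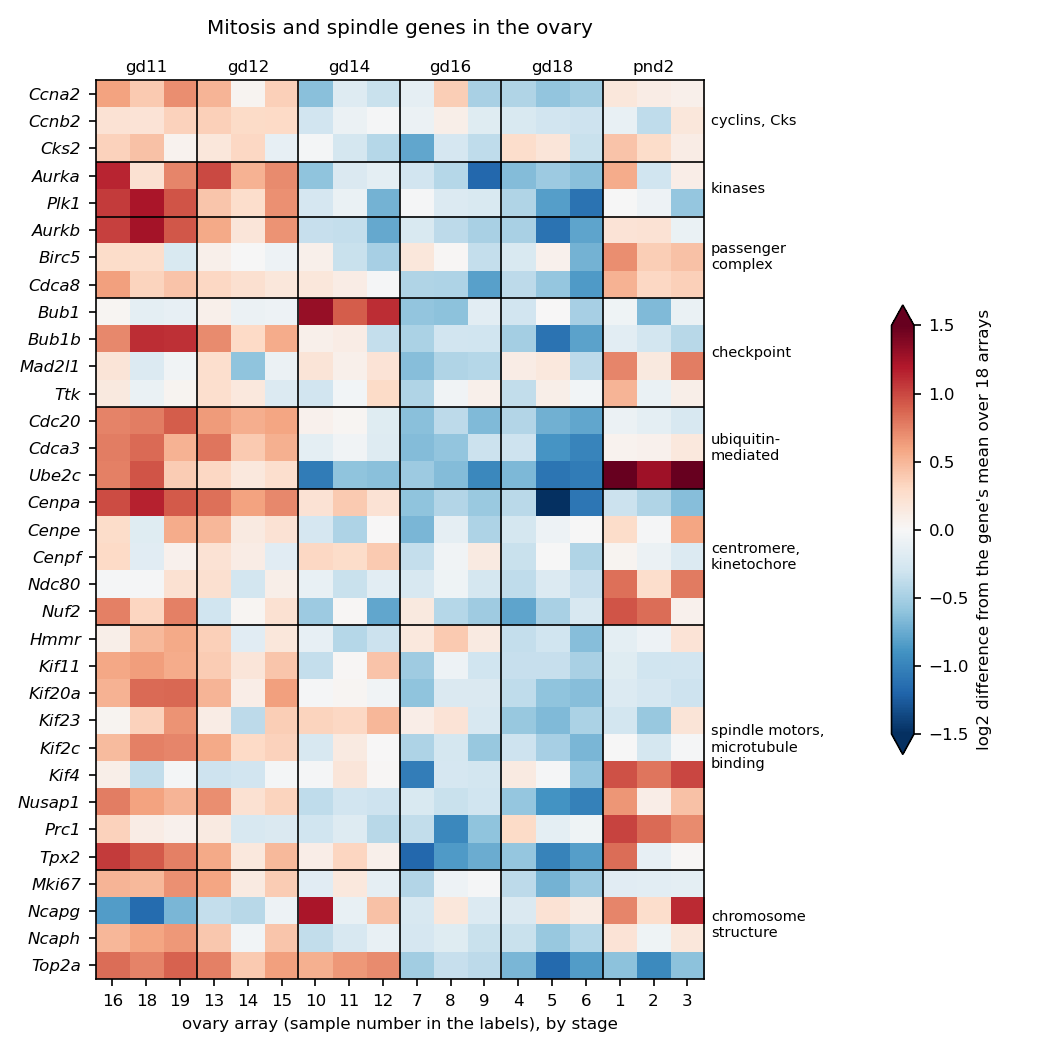
Signal of 33 mitosis and spindle genes (rows, grouped by role) on the 18 ovary arrays (columns, by stage and sample number), as log2(signal + pseudocount) minus the gene's mean over the arrays, with colours ending at -1.5 and 1.5. Most rows are red at gd11 and blue at gd16 and gd18; Bub1 is red at gd14, and Ube2c, Prc1 and Kif4 are red at pnd2.

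By stage of highest mean, a description that the measured values themselves define, 18 members (54.5%) were highest at gd11, where 21.2% of all tested genes were. Aurka and Ccnb2 were highest at gd12, 3 members at gd14 (9.09%, against 12.9%) and 10 at pnd2 (30.3%, against 22.4%). None was highest at gd16 or gd18. The lowest mean was at gd18 for 23 members, at gd16 for 9 and at gd11 for Ncapg. Of the 18 highest at gd11, 7 had all their gd11 arrays above all other ovary arrays, as did 4.04% of all tested genes. With arrays scaled to their medians instead, 24 were highest at gd11, 2 at gd14 and 7 at pnd2. With any 1 array left out, 17 to 20 were highest at gd11, 1 to 4 at gd12, 2 to 4 at gd14 and 8 to 12 at pnd2.

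Log2 changes below are differences of log2(signal + 31.43) between stages, with the SE of the limma fit, and a change was called at a Benjamini-Hochberg adjusted p under 0.05 over all 26465 tested probe sets. From gd11 to gd12 no member was called, with 9 at an unadjusted p under 0.05 and a lowest adjusted p of 0.0745 (Aurkb). In this comparison 3.29% of all tested genes rose and 1.4% fell. The members' median change was -0.22, against 0.003 over all tested genes, and 27 of 33 changes were negative. With arrays scaled to their medians 2 members fell and the median was -0.34. Without gd12 sample 13 the median was -0.32, and without gd12 sample 14 it was -0.12. Without gd11 sample 16 no member was called either.

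From gd12 to gd14 the summed meiotic markers went from 2334 to 4857 per array up to 44361 to 59034, and 13 members fell and 2 rose. The shares over all tested genes were 8.01% fallen and 11.6% risen. The members' median change was -0.42 (-0.02 over all tested genes). Without gd12 sample 13 or without gd12 sample 15, 6 members fell, and without gd14 sample 10, 8 fell. The falls of Aurkb, Cdc20, Nusap1 and Ube2c and the rise of Bub1 were called under every alternative run.

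From gd14 to gd16, 7 members fell and 1 rose, where 9.77% of all tested genes fell and 11.4% rose. The members' median change was -0.30, against 0.09 over all tested genes. Scaling to array medians moved the median of all tested probe sets in this comparison from 0.08 to -0.09, and with it 14 members fell, none rose and their median was -0.49. Without gd16 sample 7, 6 fell, none rose and the median was -0.215. The falls of Bub1, Cdc20, Cdca8 and Top2a were called under every alternative.

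From gd16 to gd18, 3 members fell and 1 rose (3.24% and 4.94% of all tested genes), with a median of -0.19 against -0.03. None of these 4 calls was kept under every alternative. The number that fell was 0 without gd16 sample 8 or gd18 sample 6, 1 without gd18 sample 5, 2 without gd16 sample 7 (and 1 rose) and 5 without gd18 sample 4. It was also 0 with median scaling.

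From gd18 to pnd2, 15 members rose and none fell, where 8.47% of all tested genes rose and 6.89% fell. Changes were positive for 32 of 33 members, Bub1 being the exception (-0.02 ± 0.17), and their median was 0.55 (-0.03 over all tested genes). The number was 10 without pnd2 sample 1, and 10 of the 15 calls were kept under every alternative. With median scaling 17 rose.

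Set against gd12 directly, pnd2 was higher for 6 members and lower for 11, where 22.6% of all tested genes were higher and 17.6% lower. Against gd11, 6 were higher and 15 lower (26.3% and 20.6% of all tested genes). Without the 2 gd11 arrays labelled with mesonephros, these counts were 4 and 11, and without gd11 sample 16 alone they were 6 and 14. The pnd2 level lay above the early level for some members and below it for others, as described by role in what follows.

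**Figure D3:**
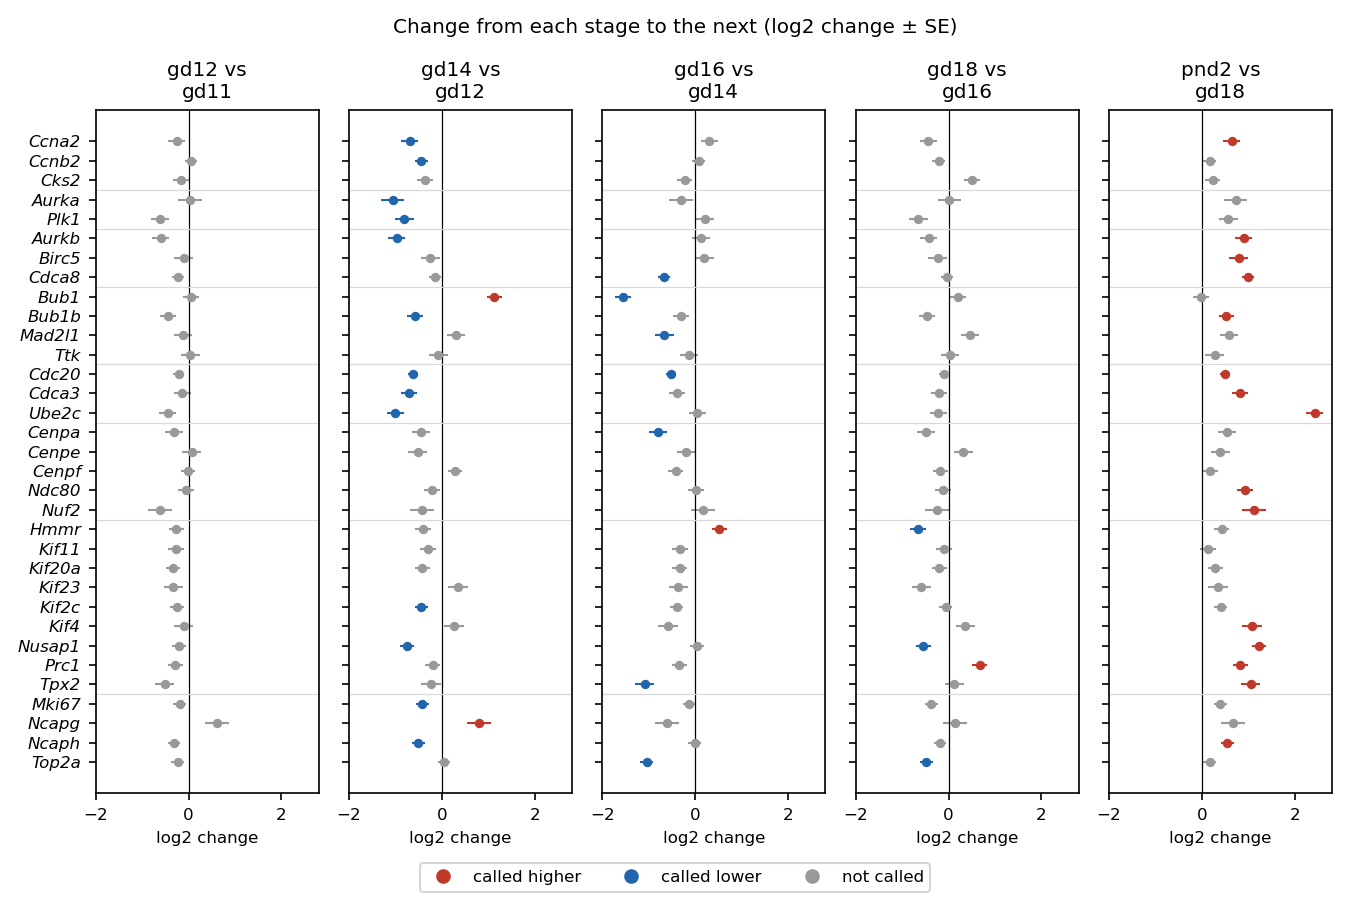
Log2 change from each stage to the next (x axis, points, with bars of 1 SE from the limma fit) for 33 mitosis and spindle genes (rows, grouped by role, grey lines between groups); red and blue points are called higher and lower. From gd12 to gd14 13 points are blue, and from gd18 to pnd2 15 points are red and none is blue.

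Of the cyclins and the kinase subunit Cks2, Ccna2 and Ccnb2 fell between gd12 and gd14. Ccna2, cyclin A2, which acts in S phase and at entry into mitosis, had signals of 2216, 1592 and 1983 at gd12 and 986, 1346 and 1217 at gd14. All gd14 arrays lay below all gd12 arrays, and the gene fell (-0.69 ± 0.18, adjusted p = 0.0139), a call lost without gd12 sample 13 (-0.59), gd12 sample 15 (-0.66) or gd14 sample 10 (-0.57). It rose from 1065 ± 55.2 at gd18 to 1675 ± 55.1 at pnd2 (0.64 ± 0.18), a call lost when either of 2 gd18 arrays, 5 (0.60) or 6 (0.64), or either of 2 pnd2 arrays, 1 (0.61) or 2 (0.64), was left out. Ccnb2, a B-type cyclin that activates the mitotic kinase, had stage means between 1321 at gd18 and 1992 at gd12. Its fall from gd12 to gd14 (-0.44 ± 0.14) was lost without any of 5 arrays of the comparison (gd12 samples 13, 14 and 15 and gd14 samples 10 and 11, -0.46 to -0.36). Cks2, a small protein bound to cyclin-dependent kinases, had a mean of 14049 ± 1900.0 at gd11, 8379 ± 1548 at gd16 and 13914 ± 1545 at pnd2, and was not called between neighbouring stages.

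The mitotic kinases Aurka and Plk1 fell early. Aurka (Aurora A), which matures centrosomes and builds the spindle, measured 1893, 1359 and 1559 at gd12 and 609, 802 and 848 at gd14. The groups did not overlap (-1.06 ± 0.25, adjusted p = 0.00728), while the mean of all its probe sets gave -0.62 and no call. Plk1 (Polo-like kinase), needed from mitotic entry to cytokinesis, measured 2069, 2343 and 1933 at gd11, 1326, 1188 and 1602 at gd12, 822, 921 and 591 at gd14 and 979.9, 932 and 650.2 at pnd2. Its arrays at gd14 all lay below those at gd12 (-0.81 ± 0.20, not called without gd12 sample 15, -0.69, or gd14 sample 12, -0.63). At pnd2 Plk1 remained below gd12 (-0.68 ± 0.20; not called without gd12 sample 15, -0.56, or pnd2 sample 3, -0.50) and was not called above gd18 (0.57 ± 0.20, adjusted p = 0.0627).

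Where 15 of the 33 members and 8.47% of all tested genes rose from gd18 to pnd2, so did all 3 members of the chromosomal passenger complex. Aurkb (Aurora B), its kinase, measured 1135, 861 and 1229.6 at gd12, 588, 582 and 430.3 at gd14, 533, 335 and 425 at gd18 and 875, 882 and 706 at pnd2. It fell from gd12 to gd14 (-0.97 ± 0.18, adjusted p = 0.00123) and rose after gd18 (0.90 ± 0.18, adjusted p = 0.0031), with no overlap in either. A second Aurkb probe set was called in both (-0.93 ± 0.21 and 1.01 ± 0.21). Cdca8 (Borealin), which targets the complex to centromeres, was not called before gd14 and fell after it, from 6063, 5852 and 5338 at gd14 to 3957, 3912 and 3058 at gd16 (-0.66 ± 0.13, and -0.73 without gd16 sample 7). It returned to 7745, 6695 and 6953 at pnd2 (1.0 ± 0.13, adjusted p = 5.47e-05), overlapping its gd11 arrays. Birc5 (Survivin), the third subunit, was called in no comparison before birth, with stage means there from 943 to 1233. It measured 1860.3, 1472 and 1544 at pnd2 (0.79 ± 0.20; not called without gd18 sample 6, 0.58, or pnd2 sample 1, 0.69).

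The 4 genes of the spindle checkpoint did not share a course. Bub1, a kinase that recruits the checkpoint to kinetochores and also protects sister cohesion in meiosis, measured 3425, 3040.2 and 3076 at gd12, 8035, 6097 and 7001 at gd14 and 2135, 2105 and 2889 at gd16. The gd14 arrays lay above all other 15 ovary arrays. Bub1 rose from gd12 to gd14 (1.13 ± 0.17, 2.19-fold, adjusted p = 0.000146) and fell to gd16 (-1.56 ± 0.17, adjusted p = 1.30e-05). Without gd16 sample 7 the fall was -1.49. A dimmer second probe set of Bub1 rose too (0.71 ± 0.22, called), and its later change was not called (-0.63 ± 0.22).

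Bub1b (BubR1), the checkpoint protein that inhibits the anaphase ligase, went the opposite way to Bub1 at gd14. It measured 3419, 4463 and 4424 at gd11, 3396, 2543 and 3043 at gd12, 2174, 2229 and 1601 at gd14 and 1437, 934 and 1162 at gd18. It fell from gd12 to gd14 (-0.58 ± 0.17), a call lost without gd12 sample 13 (-0.48), gd12 sample 15 (-0.56) or gd14 sample 12 (-0.43), and its second probe set fell too (-0.53 ± 0.13). From gd18 to pnd2 Bub1b rose to 1848, 1693 and 1538 (0.53 ± 0.17, adjusted p = 0.0469), a call lost in 15 of 28 alternatives (0.38 without gd18 sample 5), while its level below gd12 (-0.81 ± 0.17) was called in all of them. Mad2l1 (Mad2), which sequesters Cdc20, was highest at pnd2, with 9928, 6577 and 10136, against 3812, 4344 and 4424 at gd16. Its fall from gd14 to gd16 (-0.66 ± 0.20) was not called without gd16 sample 7 (-0.59), gd16 sample 8 (-0.69), gd14 sample 10 (-0.64) or gd14 sample 12 (-0.64). Its level at pnd2 was above gd12 with overlap (0.69 ± 0.20; 0.47 and no call without gd12 sample 14). Ttk (Mps1), the upstream kinase of the checkpoint, had stage means from 564 at gd16 to 708 at pnd2 and was called in no comparison.

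All 3 genes of ubiquitin-mediated proteolysis in mitosis were called lower from gd12 to gd14, as were 13 of the 33 members and 8.01% of all tested genes. All 3 were called higher from gd18 to pnd2, as were 15 of the 33 members and 8.47% of all tested genes. Cdc20, the activator of the anaphase-promoting complex, measured 10571, 10796 and 11904 at gd11, 9884, 9208 and 9541 at gd12 and 6596, 6431 and 5547 at gd14. It then measured 4076, 4819 and 3975 at gd16, 4634, 3813 and 3659.6 at gd18 and 5919, 5712 and 5351 at pnd2. Each of the first 4 stages lay below the one before without overlap. The changes were -0.63 ± 0.11 to gd14 (adjusted p = 0.000726), -0.53 ± 0.11 to gd16 (-0.49 without gd16 sample 7) and 0.49 ± 0.11 from gd18 to pnd2. At pnd2 Cdc20 was still below gd12 (-0.75 ± 0.11). Its probe set is of a type (x_at) whose probes may also match other transcripts, as are those of Aurkb, Kif2c and Ncaph. The other Cdc20 probe sets differed on the fall to gd16. One that is not of this type fell to gd14 (-0.62 ± 0.15), gave 0.04 ± 0.15 to gd16 with no call, fell from gd16 to gd18 (-0.61 ± 0.15) and gave 0.39 ± 0.15 to pnd2 with no call. The remaining one, dim and also x_at, fell to gd16 (-1.24 ± 0.22) and rose to pnd2 (0.87 ± 0.22). The fall of Cdc20 from gd14 to gd16 was called by the x_at probe sets only.

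Ube2c, the ubiquitin-conjugating enzyme that works with that complex, had the largest rise of all members after gd18. It measured 1385, 1587 and 1062 at gd11, 1009.8, 906 and 971 at gd12, 374, 520.0 and 510.2 at gd14 and 496, 361 and 374 at gd18. At pnd2 it measured 2566, 1992 and 2439, above all other ovary arrays. The rise from gd18 to pnd2 was 2.42 ± 0.18 (5.37-fold, adjusted p = 9.01e-08), after a fall from gd12 to gd14 of -1.01 ± 0.18 (adjusted p = 0.000781). Ube2c at pnd2 was also above gd12 (1.24 ± 0.18), unlike Cdc20, and both of these calls were kept under every alternative. Cdca3, an F-box-like protein known for promoting mitotic entry, fell from 764 ± 118 to 454 ± 25.1 at gd14 (-0.71 ± 0.18; not called without gd12 sample 13, -0.59) and rose from 295 ± 86.2 at gd18 to 533 ± 24.8 (0.82 ± 0.18).

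**Figure D4:**
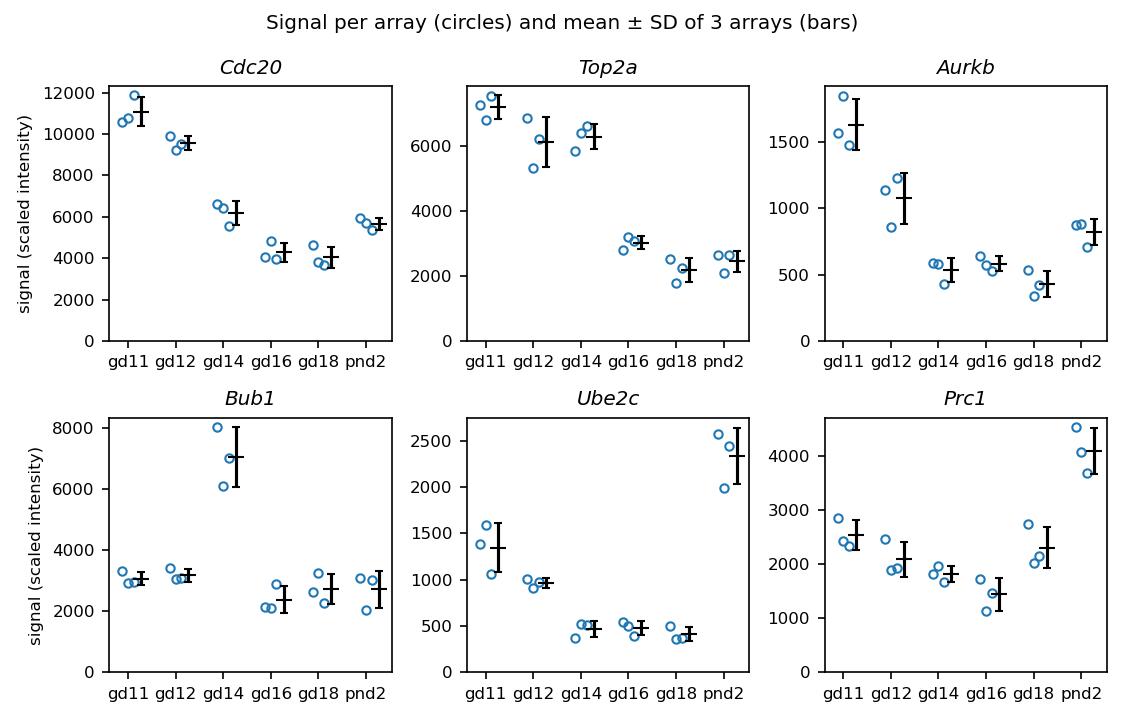
Deposited signal (scaled intensity, linear axis from 0) of 6 members on each ovary array (circles) with the mean and SD of the 3 arrays of a stage (black bars), against stage. Cdc20 and Aurkb decline from gd11, Top2a drops between gd14 and gd16, Bub1 is high on the 3 gd14 arrays (6097 to 8035), and Ube2c and Prc1 are highest on the 3 pnd2 arrays.

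Among the 5 genes of the centromere and kinetochore none was called between gd12 and gd14, where 8.01% of all tested genes fell and 11.6% rose. Cenpa, the histone variant that marks centromeres, was lower at each stage up to gd16 than at the one before. It measured 2945, 2524 and 2743 at gd12, 1919, 2174 and 1916 at gd14 and 1079.8, 1212 and 1114 at gd16. It then measured 1240, 544 and 761 at gd18, its lowest stage, and 1317, 1199.8 and 1051 at pnd2. It fell from gd14 to gd16 (-0.80 ± 0.20, and -0.77 without gd16 sample 7; -0.54 and no call with the mean of all probe sets) and remained below gd12 at pnd2 (-1.18 ± 0.20, adjusted p = 0.000114). Ndc80 and Nuf2, partners in the complex that grips microtubules, were called higher from gd18 to pnd2. Ndc80 measured 328, 372 and 337 at gd18 and 796, 530.2 and 769 at pnd2 (0.93 ± 0.17, adjusted p = 0.00144) and was above gd12 (0.61 ± 0.17; not called in 2 alternatives, highest adjusted p 0.061). Nuf2 measured 321, 404 and 487 and 1149, 1060.0 and 609 at the same stages (1.12 ± 0.26), its lowest pnd2 array lying below all gd11 arrays. The call was lost without pnd2 sample 1 (0.96), and Nuf2 was not called above gd12. Cenpe, a kinetochore motor, and Cenpf, a large kinetochore protein, were called in no comparison of neighbouring stages, and changed over the 6 stages by the F test (adjusted p = 0.0153 and 0.0427). A second Cenpe probe set was called higher from gd18 to pnd2 (0.49 ± 0.16, adjusted p = 0.0491). Cenpe had stage means from 723 at gd16 to 1208 at pnd2, and Cenpf from 2749.6 at gd18 to 4131 at gd14.

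Spindle motors and microtubule-binding proteins, 9 genes, divided by whether they regained their early level. Kif4, a motor on chromosome arms that works with Prc1, measured 514, 523 and 629.8 at gd12, 711, 634 and 419 at gd18 and 1275, 1149 and 1319 at pnd2, with the pnd2 arrays above all others. Prc1, which bundles the antiparallel microtubules of the central spindle, measured 2461, 1887 and 1929 at gd12, 1725, 1133 and 1467 at gd16, 2742, 2029 and 2148 at gd18 and 4544, 4071 and 3695 at pnd2. From gd18 to pnd2 Kif4 rose by 1.08 ± 0.21 and Prc1 by 0.83 ± 0.16. Both were also above gd12 at pnd2, by 1.13 ± 0.21 for Kif4 (adjusted p = 0.000372) and 0.97 ± 0.16 for Prc1 (adjusted p = 0.000129). Prc1 was the 1 member that rose from gd16 to gd18 (0.67 ± 0.16, and 0.81 without gd16 sample 7; not called without gd16 sample 8, 0.51, or gd18 sample 4, 0.54), and its second probe set rose as well (1.31 ± 0.15).

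Tpx2, which activates Aurora A on the spindle, and Nusap1, which stabilises spindle microtubules, were lowest at gd16 or gd18 and rose after gd18. Tpx2 measured 1337, 1557 and 1316 at gd14, 534, 677 and 727 at gd16 and 2241, 1143 and 1263 at pnd2, where the arrays spread most. It fell to gd16 (-1.09 ± 0.21, and -0.97 without gd16 sample 7; -0.40 and no call with the mean of all probe sets) and rose from gd18 to pnd2 (1.05 ± 0.21). Its pnd2 arrays overlapped those of gd11, and the change from gd11 (-0.66 ± 0.21) was lost in 7 of 30 alternatives, among them those without gd11 sample 16 (-0.59), pnd2 sample 2 (-0.48) or pnd2 sample 3 (-0.55). Nusap1 measured 3011, 2163 and 2326 at gd12, 1405, 1503 and 1475 at gd14, 1222, 975 and 899 at gd18 and 2937, 1970.3 and 2502 at pnd2. It fell to gd14 (-0.75 ± 0.16) and rose after gd18 (1.23 ± 0.16, adjusted p = 4.92e-05). Its smaller fall from gd16 to gd18 (-0.54 ± 0.16) was lost in 14 of 28 alternatives, among them the omission of any gd16 array or of gd18 sample 5 or 6.

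Kif11, Kif20a and Kif2c were lower at pnd2 than at gd12. Kif11 (Eg5), the motor that separates the spindle poles, went from 1246 ± 32.4 at gd11 to 616 ± 36.7 at gd18 and 679.8 ± 31.9 at pnd2, and Kif20a, a motor of cytokinesis, from 1419.8 ± 185 to 562 ± 59 and 692 ± 25.6. Neither was called between neighbouring stages, and from gd12 to pnd2 they fell by the test (-0.58 ± 0.17 and -0.66 ± 0.16). A second Kif11 probe set of similar signal was called higher from gd18 to pnd2 (0.55 ± 0.13) and was not called from gd12 to pnd2 (-0.23 ± 0.13). Kif2c, which depolymerises microtubules at centromeres, went from 2754 ± 283 at gd12 to 2027 ± 265 at gd14 (-0.44 ± 0.14, adjusted p = 0.0425), a call lost in 12 of 28 alternatives, including those without gd12 sample 13 (-0.36) or 15 (-0.47) and gd14 sample 10 (-0.34) or 12 (-0.46). Its change from gd12 to pnd2 (-0.50 ± 0.14) was not called without gd12 sample 13 or pnd2 sample 2, -0.42 in both. Kif23, a central spindle motor, measured 1957 ± 433 at gd11, 1964 ± 139 at gd14 and 1003 ± 69.6 at gd18 with no call between neighbours. Hmmr, which binds spindle microtubules, measured 1206, 975 and 1052 at gd14, 1474, 1747 and 1456 at gd16 and 1026, 1069 and 836 at gd18. It rose to gd16 (0.52 ± 0.17) and fell to gd18 (-0.66 ± 0.17). Its 4 other probe sets gave -0.40 to 0.19 in the first of these comparisons and -0.28 to 0.40 in the second, none called, and the mean over all probe sets gave 0.02 and -0.10. The rise was not called without gd14 sample 11 or 12 or without any 1 gd16 array (0.44 to 0.57), nor the fall without gd16 sample 8 (-0.58) or gd18 sample 6 (-0.56); without gd16 sample 7 the fall was -0.70.

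The chromosome structure genes lay on both sides of their gd12 level at pnd2. Top2a, the topoisomerase that untangles sister chromatids and is abundant in dividing cells, measured 6868, 5331 and 6222 at gd12 and 5862, 6411 and 6627 at gd14, with overlap. It then measured 2806, 3194 and 3094 at gd16 and 2637, 2085 and 2642 at pnd2. The fall from gd14 to gd16 was -1.05 ± 0.13 (adjusted p = 6.04e-05; -0.99 without gd16 sample 7), and the change from gd12 to pnd2 was -1.31 ± 0.13 (adjusted p = 6.08e-07). Top2a was not called from gd18 to pnd2 (0.17 ± 0.13, adjusted p = 0.466). Its fall from gd16 to gd18 (-0.48 ± 0.13) was lost in 10 alternatives, among them those without any 1 gd16 array (-0.53 to -0.44) or without gd18 sample 5 (-0.34) or 6 (-0.50).

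Mki67, the Ki-67 protein that coats mitotic chromosomes, measured 8589, 6233 and 7379 at gd12 and 5019, 6337 and 5177 at gd14, with overlap. Its fall (-0.42 ± 0.14, adjusted p = 0.0446) was lost in 13 of 28 alternatives, among them those without gd12 sample 13 (-0.31) or 15 (-0.41) and gd14 sample 10 (-0.36) or 12 (-0.38). The condensin I subunits Ncapg and Ncaph, which compact chromosomes as parts of the same complex, moved in opposite directions from gd12 to gd14. Ncaph measured 3199, 2344 and 3210.1 at gd12 and 1857, 2028 and 2216 at gd14 (-0.50 ± 0.13; not called without gd12 sample 13 or 15 or gd14 sample 10, -0.44 to -0.43). From gd18 to pnd2 Ncaph rose (0.55 ± 0.13), a call lost without gd18 sample 5 (0.49) or pnd2 sample 1 (0.50). Ncapg measured 695, 551 and 769.6 at gd11, 980.1, 939 and 1195 at gd12, 2979, 1166 and 1721 at gd14 and 2125, 1523 and 2781 at pnd2. Between the last 2 of these stages it was lower, with means of 1189 at gd16 and 1311 at gd18. Its gd14 arrays overlapped those of gd12, gd14 sample 10 standing highest (0.80 ± 0.26, adjusted p = 0.0451; 0.45 and no call without that sample, and 15 of 28 alternatives lost the call). A second Ncapg probe set was called as well (0.67 ± 0.20). At pnd2 Ncapg was above gd11 (1.60 ± 0.26) and gd12 (0.99 ± 0.26), and both calls were kept under every alternative.

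The members highest at gd14 or pnd2 were set apart and are described without a test. At gd14 these were Bub1, Cenpf and Kif23. Bub1 alone of them had its 3 gd14 arrays above all other ovary arrays, as did 3.55% of all tested genes, and its place was the same in 30 of 30 alternatives. Cenpf was also highest at gd14 in all 30, but its gd14 arrays overlapped those of gd11, and its other probe sets gave -0.28 ± 0.24 and 0.15 ± 0.25 from gd12 to gd14. Kif23 was highest at gd11 in 4 of 30 alternatives. At pnd2 the 10 were Birc5, Cenpe, Kif4, Mad2l1, Ncapg, Ndc80, Nuf2, Prc1, Ttk and Ube2c. For Birc5, Kif4, Ndc80, Prc1 and Ube2c all pnd2 arrays lay above all other ovary arrays, as they did for 7.6% of all tested genes. Birc5, Kif4, Mad2l1, Ndc80, Prc1 and Ube2c were highest at pnd2 in 30 of 30 alternatives, Ncapg in 28, Ttk in 26, Nuf2 in 23 and Cenpe in 22. The stage of highest signal coincides with high sums of meiotic markers at gd14 and of oocyte markers at pnd2, but the arrays hold whole ovaries, and the cell type that holds these transcripts was not tested.

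Other probe sets of the same genes allowed a check within the arrays; 10 members had none, and 32 further probe sets of 21 members were tested. For members called from gd12 to gd14, 12 of 12 other probe sets had a change of the same sign, 7 of them called, and for those called from gd18 to pnd2, 12 of 12, 8 of them called. From gd14 to gd16 the direction was shared by 9 of 14, 3 of them called, and from gd16 to gd18 by 4 of 6, 1 of them called. None of these was called in the opposite direction to its called member. Where the member itself was not called, other probe sets were called from gd14 to gd16 for Kif23 (-1.41 ± 0.33), Prc1 (-0.79 ± 0.15) and Kif2c (0.65 ± 0.19, against -0.40 for the main probe set), from gd16 to gd18 for Cdc20 and for the same Kif2c probe set (-0.82 ± 0.19), and from gd18 to pnd2 for Cenpe, Kif11 and Ncapg (0.83 ± 0.20). The second Top2a probe set, by contrast, was not called from gd14 to gd16 (-0.11 ± 0.20).

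Further genes of mitosis, 75 tested of 78 listed, gave the wider course. From gd12 to gd14, 18 fell and 5 rose (median -0.29; 8.01% and 11.6% of all tested genes), among the falls Cdca5 (Sororin, -0.90 ± 0.15) and Incenp, the scaffold of the passenger complex (-0.87 ± 0.16). From gd14 to gd16, 22 fell and 1 rose (median -0.32; 9.77% and 11.4% of all tested genes), led by the motor Kif18a (-1.36 ± 0.24) and the cytokinesis factor Ect2 (-1.34 ± 0.15). Kif18a had risen at gd14 (0.73 ± 0.24). From gd16 to gd18, 3 fell and 3 rose (3.24% and 4.94% of all tested genes), with a median of -0.05 against -0.03 over all tested genes. From gd18 to pnd2, 22 rose and none fell (median 0.34; 8.47% and 6.89% of all tested genes), led by the spindle protein Tacc3 (1.60 ± 0.16), the kinetochore protein Cenpn (1.55 ± 0.14) and Spc24, a partner of Ndc80 (1.35 ± 0.21). At pnd2, 13 were higher and 22 lower than at gd12, where 22.6% and 17.6% of all tested genes were. No gene of this list was called from gd11 to gd12, with 10 at an unadjusted p under 0.05 in limma.

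DNA replication genes, 39 tested of 41, were followed beside them. From gd12 to gd14, 7 rose and 4 fell (median -0.15; 11.6% and 8.01% of all tested genes), with Gins3, a subunit of the replicative helicase complex, rising (1.15 ± 0.17) and Rrm2, a subunit of ribonucleotide reductase, falling (-0.75 ± 0.13). From gd14 to gd16, 17 fell and none rose (median -0.38; 9.77% and 11.4% of all tested genes), among them Orc1 of the origin recognition complex (-1.38 ± 0.17) and the helicase subunit Mcm4 (-0.94 ± 0.14). From gd16 to gd18, 8 fell and 1 rose, where 3.24% of all tested genes fell and 4.94% rose. From gd18 to pnd2, 15 rose and 1 fell (median 0.42; 8.47% and 6.89% of all tested genes), with Uhrf1 (1.17 ± 0.25) and Orc1 (1.07 ± 0.17) among the rises. Whether the courses of the replication and mitosis genes differ was not tested.

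Of 8 listed germ cell and oocyte regulators of division, 6 were tested, of which 2 rose from gd12 to gd14 (11.6% of all tested genes), and 3 rose and 1 fell from gd18 to pnd2 (8.47% and 6.89%). Ccnb3, a cyclin of germ cells, rose from gd12 to gd14 (3.03 ± 0.41) and to gd16 (2.13 ± 0.41) and fell from gd18 to pnd2 (-3.43 ± 0.41). Wee2, an oocyte kinase that holds back the mitotic kinase, rose from gd18 to pnd2 (4.19 ± 0.30), as did Mos, an oocyte kinase of meiotic arrest (2.78 ± 0.37), and Aurkc, the germ cell paralog of Aurora B (2.08 ± 0.36).

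The array of whole newborn animals gave a reference without replicates. For 32 of the 33 members its signal was below all 3 pnd2 ovary arrays, and for Plk1 it lay within them. Of all tested genes 49.6% were below all 3 pnd2 arrays in the same way. The ratio of the newborn signal to the pnd2 mean had a median of 0.354, from 0.0954 for Cenpe to 0.970 for Plk1. Other members far below the ovary were Ncapg (0.112), Bub1 (0.135) and Ndc80 (0.138), and close to it were Mki67 (0.821) and Ccna2 (0.755). The newborn array held a pool of 8, and its Gapdh 3′ to 5′ ratio was 3.00, against 5.07 to 5.41 at pnd2. Probe sets were chosen and filtered on ovary signals only. The part of either in these ratios was not tested.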

How the data were processed

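Ovary RNA was amplified in 2 rounds and hybridised to Affymetrix Mouse430_2 arrays, per the labels' protocols. As deposited, each value is a linear signal intensity that the authors obtained with GCOS, per the submitters' processing notes, scaled to a trimmed mean of 500 (500.003 as measured). Scaling of this kind removes any global difference in RNA between stages. Values were kept as deposited. The log2 of the deposited intensity plus 31.43 was fitted with limma 3.58.1 (R 4.3.3; lmFit, eBayes with a mean-variance trend), with 1 term per stage over 18 arrays and 12 residual degrees of freedom; the arrays' number limits the precision. Probe sets with a stage mean above 115.78, the median of all ovary values, were tested (26465 of 45101, without 64 control probe sets), with Benjamini-Hochberg adjustment and a threshold of 0.05. Fold changes of low genes are understated by the pseudocount. The fit was tested on simulated data. Whether arrays of a stage are separate animals is stated differently by the labels and the series text. The p-values therefore rest on the spread between these samples, pooled over all stages, which may differ from that between animals.

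Platform annotation gave 1 gene to 34945 probe sets and several to 932. Tables and figures were made with Python 3.11.15, pandas 2.3.3, numpy 2.4.6 and matplotlib 3.10.9. The members, the other gene lists and the tests were chosen with earlier results of these data known. All members are named, and of other lists the called genes with the largest changes in each comparison, up to 4 in each direction. Alternatives changed the pseudocount, normalization, filter, model and probe set rule, and left out each array in turn. No sample lacked a group.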

Additional observations from a re-analysis of the deposited data

How the results depend on the processing

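Of 80 calls of single members, 44 were kept under every alternative, 36 were lost under 1 or more and 0 were reversed. Scaling arrays to their medians gave, from gd11 to gd12, 2 members lower and a median change of -0.34; from gd12 to gd14, 1 higher; from gd14 to gd16, 0 higher, 14 lower and a median of -0.49; from gd16 to gd18, 0 lower; from gd11 to pnd2, a median of -0.54; and 0 members highest at gd12. Over all tested probe sets it turned 2558 higher and 2406 lower from gd14 to gd16 into 983 and 3808, 810 and 275 from gd11 to gd12 into 525 and 614, 1210 and 795 from gd16 to gd18 into 1502 and 404, 1747 and 1697 from gd18 to pnd2 into 1928 and 1161, and 5927 and 5168 from gd11 to pnd2 into 4677 and 6912. From gd12 to gd14, 1 member was higher with quantile normalization, no filter, only the arrays compared, no trend or array weights. From gd14 to gd16, 0 were higher with only the arrays compared, no trend or the mean of all probe sets, which gave a median of -0.21. From gd16 to gd18, only the arrays compared gave 0 higher and 0 lower, and no filter, no trend or array weights gave 1 lower. With gd11 samples 18 and 19 averaged, 1 member was highest at gd12, and 3 of the 21 calls between gd11 and pnd2 were lost. Causes were not tested. Leaving out 1 array gave 1 to 2 higher and 6 to 14 lower from gd12 to gd14, 0 to 1 and 6 to 9 from gd14 to gd16 (median -0.34 to -0.215), 0 to 2 and 0 to 5 from gd16 to gd18 (median -0.19 to -0.079), and 10 to 17 higher from gd18 to pnd2. It gave 4 to 6 higher and 12 to 17 lower from gd11 to pnd2, 4 to 7 and 8 to 12 from gd12 to pnd2, a median of -0.32 to -0.12 from gd11 to gd12, and 1 to 4 members highest at gd12. No paired analysis was possible because the replicate numbers are not shared between stages. Signals near the filter limit what dim second probe sets can show.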
